A study of Physcomitrium patens with 8 samples.

Results

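The response to abscisic acid (ABA) left in the PpanrKO line of the moss Physcomitrium patens was read from its 2 libraries, PpanrKO with ABA and PpanrKO control, as the difference of each gene between them. The comparison covered 19821 of the 26610 genes in the table, those whose normalized reads averaged 20 or more across the 8 libraries of the series. The tissue in every library was chloronemata of the Gransden strain, the green filaments of a young moss culture, 6 days after subculture. The series crosses wild type and PpanrKO with an untreated control, ABA (1e-05 M, 1 h), mannitol (10%, 1 h) and dehydration to a loss of 70% of the fresh weight. Each of the 8 groups is 1 library made from the pooled RNA of 3 biological replicates, so a difference between 2 libraries has no replicate check and no test. For ABA and mannitol the tissue was moved on its cellophane to soaked paper. The labels describe no such transfer for control tissue, so ABA and the transfer cannot be told apart in this comparison. The labels do not say how the PpanrKO line was made or whether it is 1 clone.

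ABA is the plant hormone of water shortage. It binds soluble receptors that then block protein phosphatases, which frees a family of protein kinases to activate transcription factors, and transcripts for protective proteins accumulate. In this moss ABA gives the filaments tolerance to drying, and the product of the ANR gene is known as a kinase of the Raf-like type that acts between the hormone and those kinases. The series title describes it as an ABA response regulator needed to acquire desiccation tolerance.

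Recovered reads ran from 22516957 to 38767634 per library, with 32889911 in the PpanrKO control and 38767634 in PpanrKO with ABA. The normalized totals of these 2 libraries were close, 36265101 and 36619983, whereas those of wild type were 25199746 in the control and 48399887 with ABA. With totals made equal, each wild-type ABA ratio given below is multiplied by 0.521, and the PpanrKO ratios hardly move. The 10 most abundant genes held 15.5% of the signal in the control and 14.8% with ABA. The deposited gene IDs carry no names, so no gene is given a function here and the genotype labels were not checked against the targeted gene. Differences are on the log2(value + 10) scale, folds of single genes are ratios of normalized reads, and brackets hold exact 95% counting intervals, which cover counting error only. Levels are not corrected for gene length.

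Most genes of PpanrKO stood close to their control level after ABA. Of the 19821 genes, 12754 (64.3%) were within 1.5-fold, against 10177 (51.3%) in wild type. At least 4-fold higher were 171 genes (0.863% of the genes compared), and 262 (1.32%) were at least 4-fold lower. In wild type with the same treatment 1288 genes (6.50%) were higher and 649 (3.27%) lower. The wild-type split depended on the scaling, with 756 higher and 1741 lower when library totals were made equal, where PpanrKO had 158 and 257. The middle 90% of the PpanrKO differences lay between -0.995 and 1.18 log2 units, and in wild type between -1.64 and 2.41.

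The median of all genes was 0.23 in PpanrKO rather than 0. Taken relative to that median, the 4-fold split was 125 higher and 349 lower, so the share of higher genes went from 39.5% to 26.4%. At 2-fold the direction of the split itself turned, from 1644 higher and 985 lower as deposited to 861 higher and 1463 lower relative to the median. At 4-fold more genes were lower than higher under both readings, and with median-of-ratios scaling the counts were 119 and 319.

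**Figure D1:**
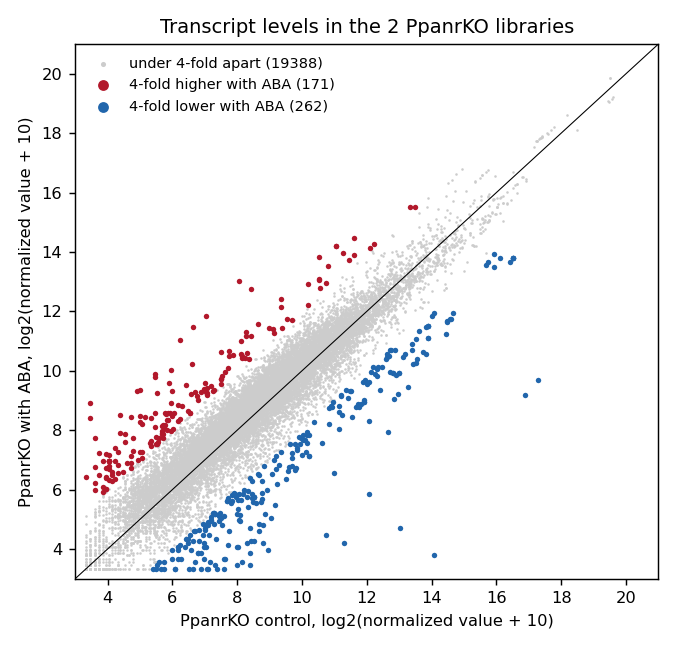
Each point is 1 of 19821 genes, with its level in the PpanrKO control on the x axis and in PpanrKO with ABA on the y axis, both as log2(normalized value + 10); the line marks equal levels. The 171 red genes are at least 4-fold higher with ABA and the 262 blue genes at least 4-fold lower, and among the blue genes with the highest control levels, Phpat.006G060600 and Phpat.006G060700 have the lowest levels with ABA.

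As deposited, large differences were fewer in PpanrKO than in wild type among higher genes, and less so among lower genes. This contrast depended on the scaling. At 4-fold with equal totals, wild type had 756 genes higher and 1741 lower, and PpanrKO had 158 and 257. Counts at larger folds are given as deposited only. At 16-fold or more, wild type had 473 genes higher and 52 lower, and PpanrKO had 14 higher and 22 lower. At 64-fold or more, 243 genes were higher in wild type and 0 in PpanrKO, whereas 5 genes were lower in wild type and 7 in PpanrKO. The untreated PpanrKO and wild-type controls, 2 libraries that differ by genotype and not by treatment, had 179 genes 4-fold higher in PpanrKO (0.903%) and 167 lower (0.843%).

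**Figure D2:**
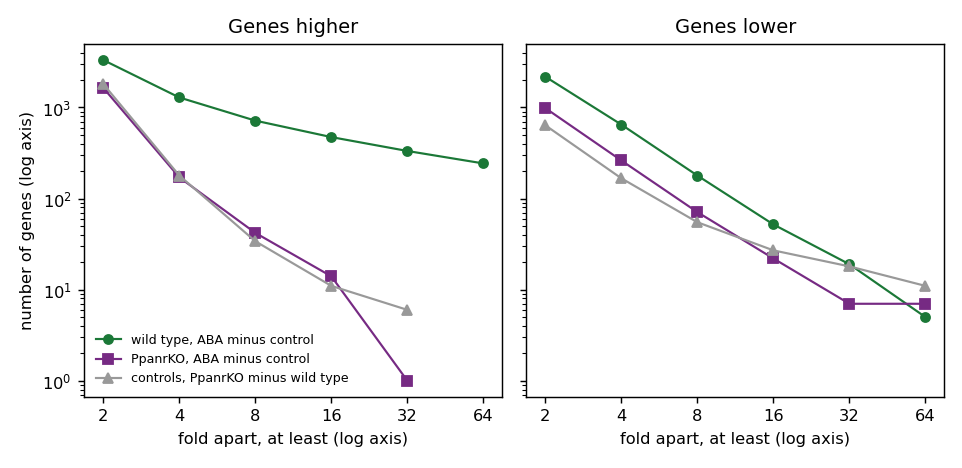
Number of genes (log axis) at least as many fold apart as the x axis gives (log axis), for ABA against control in wild type (circles) and in PpanrKO (squares) and for the PpanrKO control against the wild-type control (triangles). The higher genes of PpanrKO fall away with size as between the 2 controls (171 and 179 at 4-fold), while wild type still has 243 at 64-fold. All counts are as deposited.

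Set beside every pair of the 8 libraries, PpanrKO control and PpanrKO with ABA were the 4th closest of 28 pairs, with 433 genes at least 4-fold apart (2.18%). PpanrKO with ABA and PpanrKO with mannitol, which both had 1 h on soaked paper, were 345 genes apart (1.74%) and the 2 untreated controls 346 (1.75%). The wild-type control and wild type with ABA were 1937 genes apart (9.77%). The order at the top depended on the settings: the closest pair was the 2 controls with a pseudocount of 30, without the filter or with a stricter filter, and PpanrKO control with PpanrKO after dehydration when totals were made equal.

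Counting intervals used the same reads that picked the genes, so they describe the picked genes and are no check of the pick. All 171 higher and all 262 lower genes had a counting interval beyond 2-fold, which the 4-fold pick favours. In 136 and 219 of them it lay beyond 4-fold. The higher genes had a median of 44 reads in the control and 397 with ABA, and the lower genes 493 and 69.5. The genes just inside the threshold had log2 differences of 2.002 and -2.002, and those just outside 1.991 and -1.995. When the genes were put in 5 equal bins by mean level, the top bin held 97 of the 262 lower genes (2.45% of its genes) and 29 of the higher ones, and the bottom bin held 70 lower and 53 higher. The median difference was 0.04 in the top bin and 0.24 to 0.31 in the other four.

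By signal, the lower genes weighed more than the higher ones. Together the 262 genes held 4.91% of the normalized signal of the PpanrKO control and 0.675% of that with ABA. The 171 higher genes went from 0.204% to 1.17%. Of the signal that these 262 genes lost, a pair of genes gave 18.3% and 10 genes gave 54.0%. Among these 10 were Phpat.016G058500, Phpat.016G058600 and Phpat.016G058700, part of a run on chromosome 16 with near-equal values. Whether such genes share reads was not tested, so these shares of signal may count the same reads more than once.

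The gene with the highest difference was Phpat.016G097200 (build V3.0, chromosome 16, 16148924 to 16152439, minus strand). It had 1 read in the PpanrKO control and 505 with ABA, a ratio of 433 (77.3 to 17121). Its normalized values were 0, 14.5, 93.4 and 0 in wild-type control, ABA, mannitol and dehydration and 1.10, 477, 562 and 1.87 in PpanrKO in the same order. The gene was thus near 0 in both controls and both dried tissues and higher in PpanrKO than in wild type with ABA and with mannitol. The next was Phpat.020G086400 (chromosome 20, 15254125 to 15256726, plus strand), with normalized values of 133, 5236, 1446 and 279 in wild type and 256, 8266, 3233 and 342 in PpanrKO. It was 32.3-fold higher with ABA in PpanrKO (28.4 to 37.0) and 39.3-fold in wild type (33.2 to 47.0), so that the 2 intervals overlapped as deposited. With equal totals they did not, at 32.001 (28.1 to 36.6) in PpanrKO and 20.5 (17.3 to 24.5) in wild type.

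The lowest difference was that of Phpat.027G009300 (chromosome 27, 1324996 to 1329780, minus strand), with normalized values of 11864, 11.3, 18.2 and 351 in wild-type control, ABA, mannitol and dehydration and 17232, 3.78, 2.11 and 3.74 in PpanrKO. It was 4561-fold lower with ABA in PpanrKO (1781 to 16740) and 1049-fold in wild type (509 to 2610). Phpat.005G084800 (chromosome 5, 16084219 to 16086142, plus strand) had 7826, 58.2, 15.2 and 851 in wild type and 8296, 16.1, 8.45 and 4.68 in PpanrKO. Both genes were high in the 2 controls and more than 4-fold below the control of their genotype in all 6 treated libraries. After dehydration both were lower in PpanrKO than in wild type, where Phpat.005G084800 still had 851. Phpat.023G051600 (chromosome 23, 10037925 to 10039715, minus strand; chosen after its values were seen) was likewise high in the 2 controls and low in the 6 treated libraries, with 2062 and 12.9 in wild-type control and ABA against 1702 and 12.3 in PpanrKO.

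**Figure D3:**
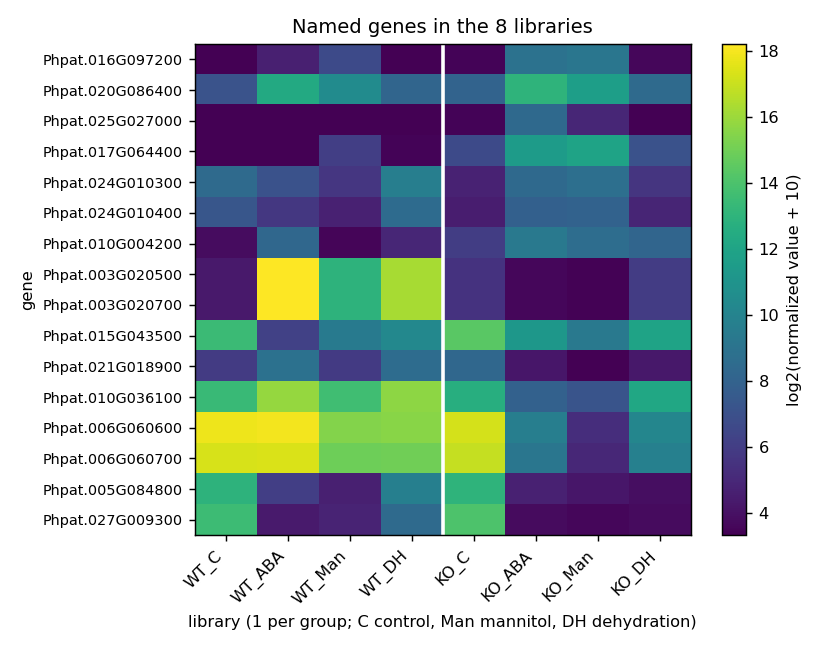
Levels of the genes named by rule, 1 row per gene in order of the PpanrKO difference, in the 8 libraries (wild type left of the white line, PpanrKO right), coloured by log2(normalized value + 10). The 7 rows at the top are brighter with ABA than in the control of PpanrKO, and the 2 rows at the bottom (Phpat.005G084800 and Phpat.027G009300) are dark in all 3 treated PpanrKO libraries.

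A single fit could test the ABA effect that both genotypes share, since it uses all 8 libraries with terms for treatment and genotype. limma called 1 gene (0.00505% of those compared) at an adjusted p under 0.05, with 2556 genes at an unadjusted p under 0.05. That gene was Phpat.020G086400, with an ABA coefficient of 5.08 ± 0.30 (SE, log2 scale, limma adjusted p = 0.036), and higher with ABA in both genotypes. On recovered reads, the quasi-likelihood test of edgeR called 0 genes, with 2120 unadjusted, and gave this gene an adjusted p of 0.11. Over the other settings limma gave it 0.035 to 0.24, and it missed the threshold without the filter, with median-of-ratios scaling and without the mannitol libraries. Without the dehydration libraries 4 genes were called, and Phpat.027G009300, Phpat.005G084800 and Phpat.023G051600 joined it, each lower (limma adjusted p = 0.036 for each of these and 0.038 for Phpat.020G086400).

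Genes 4-fold apart with ABA in wild type were then read in PpanrKO. The libraries used to pick the genes and those used to read them do not overlap. The 1288 genes 4-fold higher in wild type held 2.64% of the signal of the wild-type control and 28.6% of that with ABA. In PpanrKO they held 2.21% in the control and 2.68% with ABA, and their median level was 120 and 136 normalized reads. With no read were 56 of them in the PpanrKO control, 116 with ABA, 102 with mannitol and 68 after dehydration. The 116 are 9.01% of the 1288, where 0.792% of all genes had no read in PpanrKO with ABA. In the PpanrKO control these shares were 4.35% and 0.368%. A gene this high in wild type with ABA can pass the filter through wild type alone. The pick thus favours genes with no read in PpanrKO, and these shares are a description. Of the 649 genes 4-fold lower in wild type, the median level went from 392 to 43.6 in wild type and from 441 to 266 in PpanrKO.

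Among genes higher in wild type, PpanrKO medians did not increase with the size of the wild-type difference. Genes 2 to 3 log2 units higher in wild type (571 genes) had a PpanrKO median of 0.23, those 3 to 4 units higher (244) had 0.23, those 4 to 6 units higher (230) had 0.10 and those above 6 (243) had -0.05. These medians lie at or below the 0.23 of all genes. Of the 243 genes with the largest wild-type differences, 19 (7.82%) were at least 2-fold higher in PpanrKO, close to the 8.29% of all genes, and 25 (10.3%) were at least 2-fold lower, against 4.97% of all genes. The classes of 2 to 3, 3 to 4 and 4 to 6 units had larger shares of genes at least 2-fold higher in PpanrKO than all genes had, with 14.2%, 13.9% and 16.1%. Genes lower by 2-fold or more made up 5.08%, 8.20% and 8.26% of the same classes, against 4.97% of all genes. In the classes of 3 to 4 and 4 to 6 units, larger shares were thus found in both directions. In the class of 4 to 6 units, 13 of 230 genes were at least 4-fold higher, where 0.863% of all genes were. Lower by 4-fold or more were 4 genes of that class, where 1.32% of all genes were.

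Among genes lower in wild type, PpanrKO medians were lower the larger the wild-type difference was. The PpanrKO median was -0.14 for the 1529 genes 1 to 2 units lower in wild type, -0.55 for 470 genes 2 to 3 units lower, -0.88 for 127 genes 3 to 4 units lower and -1.66 for the 52 genes beyond that, whose wild-type median was -4.55. At least 2-fold lower in PpanrKO were 14.5%, 33.0%, 46.5% and 65.4% of these 4 classes. The background over all genes was 4.97%.

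**Figure D4:**
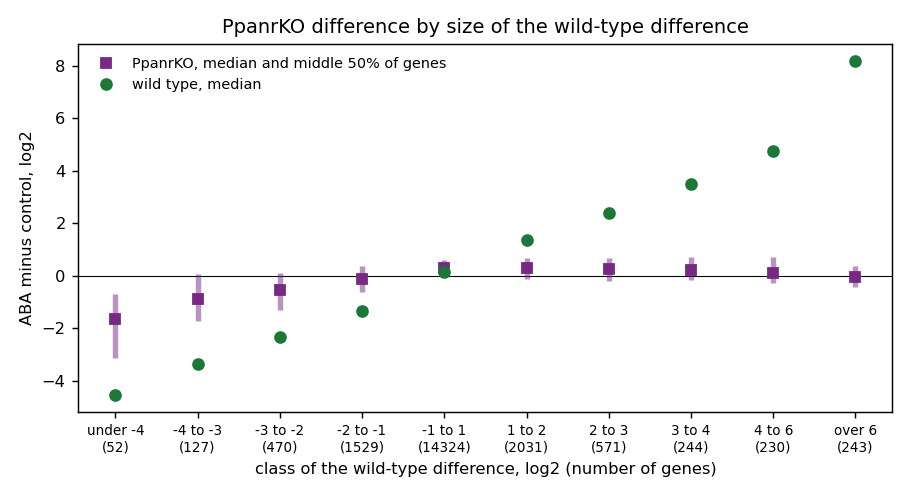
ABA minus control (log2) for genes grouped by the size of the wild-type difference (x axis, with the number of genes): squares are PpanrKO medians with bars for the middle 50% of genes, circles are wild-type medians. PpanrKO medians go from -1.66 to -0.14 over the 4 lower classes and stay between -0.05 and 0.28 over the 5 higher classes, where the wild-type median reaches 8.19.

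The largest wild-type difference was in Phpat.003G020700, on the minus strand of chromosome 3 (3474482 to 3475488). Phpat.003G020500, on the plus strand (3452459 to 3453465), had equal or nearly equal reads in every library, and these may be the same reads. Phpat.003G020700 had normalized values of 10.6, 305794, 7779 and 77756 in wild-type control, ABA, mannitol and dehydration and 35.3, 1.89, 0.704 and 51.5 in PpanrKO. The 3 wild-type treatments all stood far above the control, and in PpanrKO the ABA and mannitol libraries were below it. The 2 lowest in wild type were Phpat.027G009300, described above, and Phpat.015G043500 (chromosome 15, 7020834 to 7022400, minus strand). Phpat.015G043500 was 183-fold lower in wild type (134 to 258), with 11531 and 63.0 normalized reads, and 9.25-fold lower in PpanrKO (8.88 to 9.65), with 22133 and 2392.

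In the reverse pick, genes 4-fold apart in PpanrKO were read in wild type with ABA. Of the 171 higher genes, 35 (20.5%, against 6.50% of all genes) were at least 4-fold higher in wild type, 67 (39.2%, against 51.3%) were within 1.5-fold and 21 (12.3%, against 10.99%) were at least 2-fold lower. A gene at or near 0 reads in both wild-type libraries also counts as within 1.5-fold. Of the 171, 12 had no read in the wild-type control and 19 had none in wild type with ABA. Of the 262 lower genes, 106 (40.5%, against 3.27%) were at least 4-fold lower in wild type, 40 (15.3%, against 51.3%) were within 1.5-fold and 30 (11.5%, against 16.7%) were at least 2-fold higher. As deposited, the 35 shared higher genes are 2.72% of the 1288 wild-type ones, and the 106 shared lower genes are 16.3% of the 649.

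The 35 shared higher genes had a median difference of 2.48 in PpanrKO and 3.64 in wild type, and 10 of them were further apart in PpanrKO. Their medians in the 2 controls were alike, 54.0 normalized reads in PpanrKO and 55.9 in wild type. Phpat.020G086400 led them, followed by Phpat.010G004200 (chromosome 10, 1361243 to 1362326, minus strand), with normalized values of 3.86, 299, 1.52 and 20.9 in wild-type control, ABA, mannitol and dehydration and 54.0, 629, 385 and 282 in PpanrKO. This gene was higher in each PpanrKO library than in its wild-type counterpart, and it was near its wild-type control level with mannitol there. The 106 shared lower genes had medians of -2.70 in PpanrKO and -2.89 in wild type, and 43 were further apart in PpanrKO. The medians and counts of both shared sets are given as deposited only. With equal totals 756 genes were 4-fold higher and 1741 lower in wild type, so the shared sets and their sizes depend on the scaling.

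Genes 4-fold apart in PpanrKO and within 1.5-fold in wild type were led by Phpat.025G027000 (chromosome 25, 4728596 to 4732564, minus strand) and Phpat.017G064400 (chromosome 17, 11841714 to 11843147, plus strand). Phpat.025G027000 had 0 reads in all 4 wild-type libraries and 1, 351, 29 and 0 in PpanrKO control, ABA, mannitol and dehydration, a ratio of 301 (53.6 to 11910) with ABA. Phpat.017G064400 had 0, 0, 76 and 1 reads in wild type and 82, 3021, 5763 and 136 in PpanrKO, 31.6-fold higher with ABA (25.3 to 39.8). Neither was detected in wild type with ABA, where a count of 0 allows up to 3 reads. Both had 0 reads in wild-type control and ABA, which counts as within 1.5-fold. Phpat.025G027000 passed the filter only through PpanrKO with ABA.

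Among the lower genes of this kind, the pair Phpat.006G060600 (chromosome 6, 10934034 to 10935973, minus strand) and Phpat.006G060700 (chromosome 6, 10939288 to 10940656, plus strand) lost the most signal of the 262 genes. Over all genes compared they ranked 4 and 6 by signal lost, among abundant genes under 4-fold apart. Phpat.006G060600 had normalized values of 236027, 250538, 44383 and 48307 in wild-type control, ABA, mannitol and dehydration and 160294, 826, 28.9 and 1116 in PpanrKO. It was 194-fold lower with ABA in PpanrKO (182 to 208) and 1.06-fold higher in wild type (1.05 to 1.07). Phpat.006G060700 had 165646, 168178, 31182 and 32902 in wild type and 121322, 566, 21.1 and 872 in PpanrKO. Both genes were abundant in the 2 controls, near the control level in wild type with ABA as deposited, and low in all 3 treated PpanrKO libraries. With equal totals the wild-type ratios were 0.553 and 0.529, so the pair was then not within 1.5-fold in wild type. Their levels ran in parallel over the 8 libraries, and whether they share reads was not tested.

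The genotypes stood opposite in 21 genes at least 4-fold higher in PpanrKO and at least 2-fold lower in wild type, and in 30 genes with the reverse. As shares of the 171 and 262 genes, 12.3% was near the 10.99% of all genes that were 2-fold lower in wild type, and 11.5% was below the 16.7% that were 2-fold higher, so these counts are no result about the genes. The first were led by neighbours with the same strand, Phpat.024G010300 (chromosome 24, 2798099 to 2798724, plus strand) and Phpat.024G010400 (chromosome 24, 2798909 to 2799341, plus strand). Phpat.024G010300 had normalized values of 342, 124, 40.3 and 823 in wild-type control, ABA, mannitol and dehydration and 16.5, 338, 416 and 38.4 in PpanrKO. Wild type was lower with ABA and mannitol and higher after drying, and PpanrKO was low in the control and after drying and high with ABA and mannitol. The reverse group was led by Phpat.010G036100 (chromosome 10, 6202881 to 6204594, plus strand), with 10922, 58522, 12953 and 52494 in wild type and 6402, 236, 139 and 4619 in PpanrKO. It was 27.1-fold lower with ABA in PpanrKO (23.9 to 30.9) and 5.36-fold higher in wild type (5.25 to 5.47). Phpat.021G018900 (chromosome 21, 3477345 to 3477434, plus strand), a short gene model, had 275 reads in the PpanrKO control and 9 with ABA, against 51 and 285 in wild type.

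The genes 4-fold apart with ABA in PpanrKO were also read in wild type under the other treatments, in libraries that the pick did not use. The 3 wild-type readings share the wild-type control and are given side by side. The 171 higher genes had a median of 0.29 with ABA, 0.93 with mannitol and 0.00 with dehydration, where all genes had 0.18, 0.47 and -0.20. At least 4-fold higher were 35 with ABA, 52 with mannitol (30.4%, against 4.44% of all genes) and 21 with dehydration (12.3%, against 4.35%). The 262 lower genes had medians of -1.63, -1.999 and -2.09, and 106, 131 and 139 of them were at least 4-fold lower, where 3.27%, 2.43% and 6.61% of all genes were.

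Within PpanrKO, mannitol against dehydration is the one comparison that uses neither library of the pick. There the 171 higher genes had a median of 1.21 (all genes 0.38), and 43 (25.1%) were at least 4-fold higher with mannitol, against 2.01% of all genes. The 262 lower genes had a median of -1.24, and 86 (32.8%) were at least 4-fold lower with mannitol, against 1.22%. The median levels of the higher genes were 48.5, 375, 385 and 130 normalized reads in PpanrKO control, ABA, mannitol and dehydration, and those of the lower genes 544, 65.6, 70.1 and 178.

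**Figure D5:**
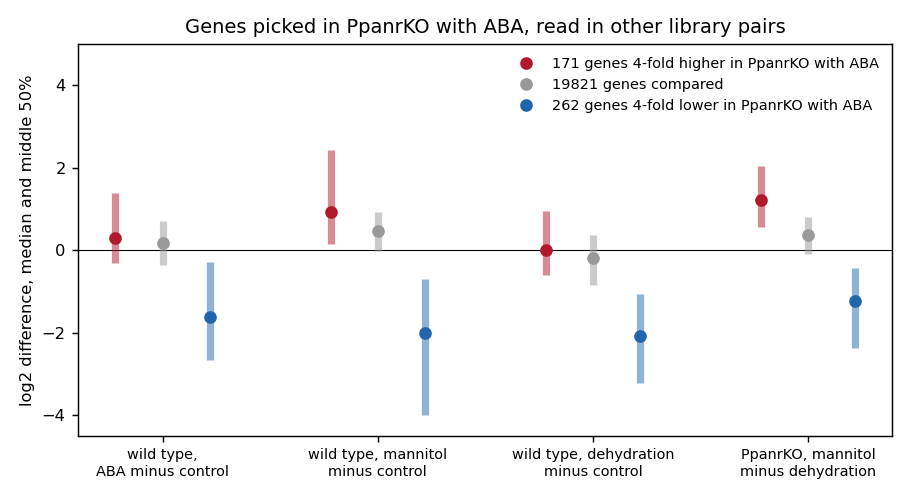
Genes 4-fold higher (red, 171) or lower (blue, 262) with ABA in PpanrKO and all genes compared (grey), read in 4 library pairs that share no library with the pick: points are median log2 differences and bars the middle 50% of genes. The lower genes are below all genes in every pair (medians -1.24 to -2.09), and the higher genes stand furthest above all genes in PpanrKO with mannitol against dehydration.

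Some of the genes picked for their difference with ABA in PpanrKO were extreme there over all 8 libraries, which the pick favours, so these counts are a description. Of the 171 higher genes, 89 had their highest level of all 8 libraries there, 31 by at least 2-fold over each of the other 7 and 5 by at least 4-fold. Of all genes, 24.9% had their highest level in that library, 85 of them by at least 2-fold and 5 by at least 4-fold, against 682 and 126 genes in wild type with ABA. These 5, chosen after their values were seen, were Phpat.025G027000, Phpat.003G087900, Phpat.004G042600, Phpat.024G016200 and Phpat.014G044200. Phpat.025G027000 passed the filter only through PpanrKO with ABA, the library where it was highest, so its place here follows in part from the filter. Phpat.003G087900 (chromosome 3, 15241227 to 15244900, minus strand) had normalized values of 1301, 2236, 1556 and 1194 in wild-type control, ABA, mannitol and dehydration and 1475, 14492, 2489 and 1140 in PpanrKO. It was 9.82-fold higher with ABA in PpanrKO (9.29 to 10.4) and 1.72-fold in wild type (1.59 to 1.85), and the other 7 libraries had 1140 to 2489. Phpat.004G042600 (chromosome 4, 8306328 to 8311014, minus strand) had 85.8, 229, 223 and 77.5 in wild type and 331, 2318, 407 and 299 in PpanrKO.

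Of the 262 lower genes, 42 had their lowest level in PpanrKO with ABA, 5 by at least 2-fold and 1 by at least 4-fold, where 2.24% of all genes were lowest there. That gene, chosen after its values were seen, was Phpat.001G036000 (chromosome 1, 6364648 to 6367474, minus strand), with 20.8 normalized reads there and 139 to 289 in the other 7 libraries. It was 7.96-fold lower with ABA in PpanrKO (5.07 to 13.1).

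Among the 171 higher genes, the gains in signal were largest in Phpat.019G074600 and Phpat.026G026000, both chosen after their values were seen. Over all genes compared, the 10 largest gains, of 68103 to 189393 normalized reads, were in other genes, each under 4-fold apart. Phpat.019G074600 (chromosome 19, 14735938 to 14739874, minus strand) had 1805, 6163, 3564 and 716 in wild-type control, ABA, mannitol and dehydration and 10322, 47253, 23521 and 7517 in PpanrKO. It was 4.58-fold higher with ABA in PpanrKO (4.48 to 4.68) and 3.42-fold in wild type (3.23 to 3.61), and each PpanrKO library was above its wild-type counterpart. Phpat.026G026000 (chromosome 26, 3780810 to 3781810, plus strand) had 11463 and 47218 in PpanrKO control and ABA and 367 and 246 in wild type. With median-of-ratios scaling or relative to the median, both were under 4-fold.

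Genes 4-fold apart often lay next to another with the same direction. In the order of the compared genes along each chromosome, the next gene was also 4-fold higher after 13.5% of the higher genes, where 0.863% of all genes were higher. After 18.3% of the lower genes the next was also lower, against 1.32%. Such runs held 41 of the 171 higher genes in 18 runs and 81 of the 262 lower genes in 33 runs.

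The longest run was 7 genes on chromosome 7, from Phpat.007G042200 to Phpat.007G042800 (6148536 to 6412110), each with 6 reads in the PpanrKO control and 99 to 122 with ABA. Phpat.007G042200 (6148536 to 6151213, minus strand) and Phpat.007G042800 (6409433 to 6412110, plus strand), named after their values were seen, had equal reads in all 8 libraries, with 0, 0, 105 and 0 in wild-type control, ABA, mannitol and dehydration and 6, 122, 51 and 24 in PpanrKO. A run of 5 lower genes lay on chromosome 16, from Phpat.016G058400 to Phpat.016G058800 (9168353 to 9233649), with 78789 to 85265 reads in the control and 13834 to 15038 with ABA. Whether near-identical copies share these reads was not tested, and the values of such runs are uncertain. Counting neighbours with near-equal values in every library (within 0.15 log2 units) once left 168 higher and 245 lower genes. In the run on chromosome 7 this merged only Phpat.007G042200 with Phpat.007G042300 and Phpat.007G042700 with Phpat.007G042800. Genes with equal reads that were not neighbours, such as Phpat.007G042200 and Phpat.007G042800, were thus still counted apart. Such neighbours made up 11.5% of the lower genes, 3.51% of the higher genes and 1.24% of all genes.

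The called genes were shorter than the rest. The median span of the gene models was 2567 bases for the higher genes, 2122.5 for the lower genes and 3089 for all genes compared. An older V1.6 model was paired with 70.8% of the higher and 73.7% of the lower genes, against 77.9% of all. Overlap with a gene on the other strand was found for 11 higher genes (6.43%) and 9 lower genes (3.44%), against 5.33% of all genes, and their reads cannot be assigned to 1 strand since no source states whether counting used strand. By chromosome, 0 to 2.03% of the genes compared were higher and 0.254% to 2.38% lower. Chromosome 7, which holds the run of 7, had the highest share of higher genes (16 of 787) and the lowest share of lower ones (2).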

How the data were processed

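The deposited signal holds 1 normalized read count per gene and library; TopHat2, bedtools, SAMtools, Trimmomatic and FastQC were used, per the submitters' processing notes, with no versions, and no source used here says how the authors normalized. In each library 100% of the values were whole multiples of 1 step, within 0.01 read, so whole reads were recovered by dividing by it. The other deposited file gives gene starts and ends in build V3.0 (Phytozome v10, per the file's source column).

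Genes with a mean of at least 20 were compared as log2(value + 10), and a gene counted at 4-fold. Ratios of reads have exact 95% intervals conditional on their sum (scipy 1.17.1). limma 3.58.1 (trend, treatment plus genotype, 3 residual degrees of freedom, two-sided, Benjamini-Hochberg) and edgeR 4.0.16 (TMM, quasi-likelihood) tested the ABA effect of both genotypes; the scripts were tested on simulated data. p-values measure only the spread between these pooled libraries, with genotype-by-treatment differences in the residual.

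IDs could not be paired with names (the RefSeq table at hand, of another assembly, shares 0 IDs), so gene lists were not applied. Named genes follow a rule of at most 2 higher and 2 lower IDs in each of 5 classes (largest PpanrKO difference; 4-fold in both genotypes; opposite; PpanrKO with wild type within 1.5-fold; largest wild-type difference); others are marked as chosen later. The comparison, classes and lists were chosen with earlier results of these data known.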

Additional observations from a re-analysis of the deposited data

Results flagged for a closer look

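Of the genes named by rule, 6 stood at least 2-fold apart in opposite directions in the 2 genotypes with ABA. The difference between the genotypes was not tested, since each direction rests on 1 library per group, and 4 of the genes were named for being opposite. Phpat.024G010300 had a log2 difference of 3.71 in PpanrKO and -1.39 in wild type, and its neighbour Phpat.024G010400 had 3.34 and -1.55. Phpat.010G036100 had -4.70 in PpanrKO and 2.42 in wild type. Phpat.021G018900 had -4.08 and 2.99. Phpat.003G020700 and Phpat.003G020500, whose reads may be the same, each had -1.93 in PpanrKO and 13.86 in wild type, with 32 reads in the PpanrKO control and 2 with ABA.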

How the results depend on the processing

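The counts of genes at least 4-fold higher and lower in PpanrKO were 171 and 262. They were 312 and 412 with a pseudocount of 1, and 106 and 181 with a pseudocount of 30. Of the genes 4-fold higher in wild type, 13.3% were 2-fold higher in PpanrKO; this was 20.2% with a pseudocount of 1, 9.07% with 30, 8.08% with median-of-ratios scaling and 8.17% relative to the median. Of those 4-fold lower in wild type, 38.2% were 2-fold lower in PpanrKO, against 33.2%, 43.0%, 42.9% and 43.1% in the same order and 24.0% with equal totals. Of the genes 4-fold higher in PpanrKO, 30.4% were 2-fold higher in wild type, with 40.7% at a pseudocount of 1 and 21.5% with equal totals. Of those lower, 63.0%, 51.7% and 75.1% were 2-fold lower in wild type. As deposited, 8.29% of all genes were 2-fold higher and 4.97% lower in PpanrKO, and 16.7% and 10.99% in wild type. Relative to the median, the PpanrKO counts over all genes went from 1644 and 985 to 861 and 1463. The background thus moves with the setting, and the shares as deposited are no background for the other settings. For both genotypes together, 1 gene was called; 0 were called by edgeR, without the filter, with median-of-ratios scaling and without the mannitol libraries, and 4 without the dehydration libraries. The cause of these shifts was not tested. No named gene reversed the direction of its PpanrKO difference under any setting run that kept it. The wild-type directions were not followed in this way. With equal totals the wild-type ratios of Phpat.006G060600 and Phpat.006G060700 went from 1.06 and 1.02 to 0.553 and 0.529. Counting near-equal neighbours once (168 and 245 genes) was chosen after seeing the data. No paired analysis was possible because the labels give no replicate numbers and each group is 1 library. Leaving out a replicate was not possible for the same reason.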
